A study of Mus musculus with 19 samples.

Results

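The genes described here encode the pore-forming and auxiliary subunits of the voltage-gated sodium and calcium channels in locus coeruleus of mice. They were chosen by name alone: every symbol with deposited counts that was Scn followed by a number and a or b, or Cacna, Cacnb or Cacng followed by a number. The rule found 33 of the 14443 counted genes, of which 11 were sodium channel and 22 calcium channel genes. Values are given for 31 of them, while counts of genes called and medians cover all 33. A further 6 symbols that fit the rule had deposited FPKM on a single line but no counts. These were Cacna1f, Cacna1s, Cacng1, Cacng6, Scn10a and Scn11a, and none of them exceeded 0.583 FPKM in any library; Scn10a was listed at 0 in all 19. Another 1 symbol that fit the rule had no counts and stood on several lines of the deposited FPKM, and its FPKM were not used.

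Voltage-gated sodium channels carry the fast inward current of the action potential, and their beta subunits modify gating. Voltage-gated calcium channels open with depolarisation: L-type channels couple activity to gene expression and, at low voltages, to pacemaking, P/Q- and N-type channels trigger transmitter release, and T-type channels open near rest. Locus coeruleus noradrenergic neurons fire spontaneously during waking and slow down in sleep, and both sodium and L-type calcium currents are known to take part in that firing. Calcineurin is a phosphatase activated by calcium and calmodulin. Its regulatory subunit CnB1 is encoded by Ppp3r1.

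The study measured poly(A) RNA in dissected locus coeruleus by RNA sequencing in 19 libraries of 4 groups. WT_S6 (n = 4) were ABC-Ctrl control mice that slept, WT_SD6 (n = 5) the same controls kept awake for 6 h, CnB1KO_S6 (n = 5) ABC-CnB1KO mice that slept, and CnB1KO_SD6 (n = 5) ABC-CnB1KO mice kept awake for 6 h. Tissue was taken 4 weeks after injection of AAV-hSyn-Cre, a virus in which a neuronal promoter drives Cre, so non-neuronal cells in the tissue are not its target. No source used here gives the age, sex, strain or batch of the mice, or the alleles that the controls carried.

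Library totals ran from 3887298 to 7903253 counts, and a channel gene had between 17 and 3549 counts in a library. Ppp3r1 stood at 161 ± 4.08 CPM in WT_S6 (SD, n = 4), 152 ± 10.9 in WT_SD6 (n = 5), 129 ± 13.2 in CnB1KO_S6 (n = 5) and 133 ± 6.73 in CnB1KO_SD6 (n = 5), where CPM are counts scaled to a common library total with TMM factors. The targeted gene was 1.2-fold lower in CnB1KO averaged over both sleep states (log2 fold change -0.26, edgeR adjusted p = 0.00758). The noradrenergic markers Th, Dbh and Slc6a2 were present in all groups, with Slc6a2 at 360 ± 109 to 454 ± 86.9 CPM. Several libraries stood apart. WT_SD6 library 8 had the lowest noradrenergic score of the series (4.93, the mean log2 CPM of 12 markers, against 5.45 to 6.42 in the other 18) and the highest cerebellar score (7.62). CnB1KO_SD6 library 18 had the lowest level of its group for 26 of the 33 channel genes. Its median deviation from the group mean was -0.18 (log2) over genes with at least 15 kb of exon and 0.09 over genes with under 2 kb. Values without these libraries stand beside the results that they move most. In bulk tissue, fewer cells of a type and less RNA per cell cannot be told apart.

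The sequences below stand upstream of a start site of the channel genes that the results turn on. Cacna2d3 and Scn2a were among the 3 channel genes with the smallest p between genotypes and had fold changes of opposite sign, of which that of Scn2a did not pass the test, and Cacna1b and Cacna2d1 rose and fell together from library to library. Each is the 250 bases before a RefSeq start site (GRCm38.p6, 5′ to 3′ on the gene's strand), and none overlaps an annotated exon. Capitals mark a cAMP response element half-site, TGACG or its reverse complement CGTCA. Cacna2d3 lies at chr14:29721865-29722114 (minus strand), Scn2a at chr2:65620519-65620768 (plus), Cacna1b at chr2:24763153-24763402 (minus) and Cacna2d1 at chr5:15934441-15934690 (plus).
Cacna2d3: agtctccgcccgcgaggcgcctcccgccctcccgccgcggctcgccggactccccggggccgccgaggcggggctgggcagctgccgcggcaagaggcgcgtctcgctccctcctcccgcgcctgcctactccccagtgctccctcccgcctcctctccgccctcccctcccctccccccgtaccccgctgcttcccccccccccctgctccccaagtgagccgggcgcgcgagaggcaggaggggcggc
Scn2a: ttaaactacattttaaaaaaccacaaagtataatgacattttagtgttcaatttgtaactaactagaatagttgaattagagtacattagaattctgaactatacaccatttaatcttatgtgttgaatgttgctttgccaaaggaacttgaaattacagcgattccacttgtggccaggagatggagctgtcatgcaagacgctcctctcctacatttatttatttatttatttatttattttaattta
Cacna1b: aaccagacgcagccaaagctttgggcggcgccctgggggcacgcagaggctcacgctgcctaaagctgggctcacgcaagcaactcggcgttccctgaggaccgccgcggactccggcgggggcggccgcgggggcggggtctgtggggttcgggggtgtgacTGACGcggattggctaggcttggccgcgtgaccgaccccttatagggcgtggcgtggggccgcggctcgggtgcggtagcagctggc
Cacna2d1: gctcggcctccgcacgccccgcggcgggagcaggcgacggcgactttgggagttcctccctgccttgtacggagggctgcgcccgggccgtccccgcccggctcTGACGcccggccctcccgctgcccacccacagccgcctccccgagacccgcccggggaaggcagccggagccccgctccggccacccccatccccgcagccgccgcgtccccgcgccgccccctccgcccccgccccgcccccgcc
The Cacna2d3 sequence held 80.0% G or C and 30 CpG pairs, whereas this Scn2a sequence held 29.6% and 2 CpG pairs. A second Scn2a start site, with upstream bases at chr2:65668436-65668685, held 53.2% and 9 CpG pairs. Cacna1b (72.0%, 29 CpG pairs) and Cacna2d1 (82.4%, 36 CpG pairs) were both rich in CpG, and each held 1 half-site. RefSeq promoters matched 24 of the 33 channel genes, with 35 start sites. Their median G or C content was 56.8%, against 52.4% over all 32851 promoters of the table. The half-site stood in 5 of these 35 (14.3%), against 17.8% of all promoters. The core bound by the calcineurin target NFAT (TGGAAA or TTTCCA) stood in 4 of 35 (11.4%), against 18.6%, and the E-box CACGTG in 0 of 35, against 6.02%. These motifs were searched on both strands, and a match describes the letters only.

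The channel genes spanned a wide range of levels. In deposited FPKM, which are per length and so allow genes to be compared, the highest mean of the 31 over all libraries was that of Cacng7 at 57.01 and the lowest that of Cacna2d4 at 1.22. Among the sodium channel pores, Scn2a (42.2 FPKM), Scn8a (42.1) and Scn1a (39.97), which encode the 3 main pores of the adult brain, lay close together: in WT_S6 they stood at 46.6 ± 6.69, 41.97 ± 3.91 and 40.05 ± 1.54 FPKM (SD, n = 4). Scn3a, the pore best known from the fetal brain, stood at 16.62 FPKM, and the peripheral sensory pore Scn9a at 5.92. Scn7a, a sodium-sensing member of the family, stood at 3.53, at percentile 15.3 of all counted genes. Of the sodium channel beta subunits, Scn2b stood at 47.83 FPKM, Scn4b, the subunit tied to resurgent current, at 37.43 and Scn3b at 30.26.

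Among the calcium channel pores the P/Q-type pore Cacna1a led with 42.56 FPKM, followed by the T-type pore Cacna1g (36.51), the R-type pore Cacna1e (30.62) and the N-type pore Cacna1b (29.21). The L-type pores stood lower, with Cacna1d, which opens at more negative voltages, at 20.25 FPKM and Cacna1c at 13.94. The other T-type pores followed with Cacna1i at 13.42 and Cacna1h at 8.6. Of the alpha2delta subunits, which carry channels to the membrane and bind gabapentinoids in the case of the first pair, Cacna2d2 (37.98) and Cacna2d1 (37.66) were near equal, Cacna2d3 stood at 20.39 and Cacna2d4, known from the retina, at 1.22. The beta subunits, which hold the pore at the membrane from the cytoplasmic side, lay close together in FPKM, from Cacnb3 at 32.38 to Cacnb2 at 27.02. Per kilobase of all annotated exons Cacnb2 had 48.3 counts, against 145.5 for Cacnb3, 154.7 for Cacnb1 and 137.8 for Cacnb4. The gamma subunits, most of which act in the brain as partners of AMPA receptors and not of calcium channels, ran from Cacng7 at 57.01 through Cacng2 (27.33) to Cacng3 at 16.6.

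**Figure D1:**
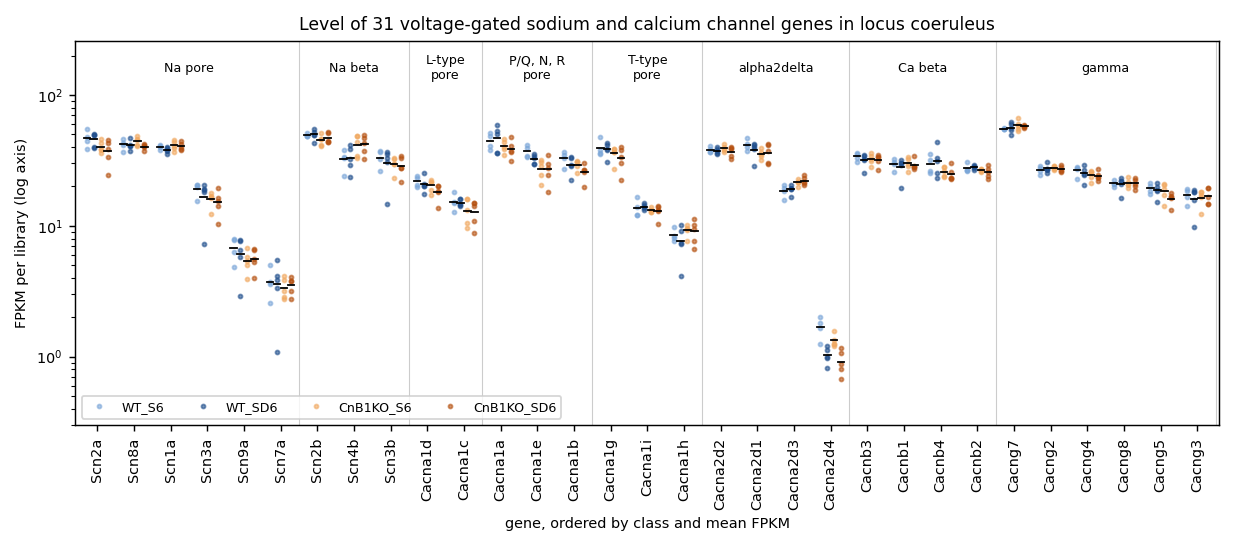
FPKM of 31 channel genes in each of the 19 libraries on a log axis, grouped by class and ordered by mean; points are libraries coloured by group and black bars are group means. Cacng7 (mean 57.01) and Scn2b (47.83) lie at the top and Cacna2d4 (1.22) and Scn7a (3.53) at the bottom, and the 4 groups of most genes overlap.

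The first comparison asked how the channel genes differed between CnB1KO and control mice, averaged over both sleep states. Cacna2d3 rose by 0.22 ± 0.05 (log2, SE) in CnB1KO, and it was the only channel gene to pass the test (edgeR adjusted p = 0.0227). So 1 of 33 channel genes passed, against 3.09% of all genes. The pores showed mainly lower values without passing: Cacna1e, Scn2a, both L-type pores, Cacna1a, Cacna1b and Cacna1g were all below 0. In all, 12 of the 33 had a log2 fold change above 0 and 21 below, with a median of -0.08, against a median of 0.01 over all genes. Over all genes this fold change had a median of 0.05 under 2 kb of exon and -0.05 at 15 kb or more. At 10 to 15 kb, where 9 channel genes lie, it was -0.02. The part of exon length in the channel values was not tested. At an unadjusted p under 0.05 there were 7 channel genes of 33, against 23.1% of all genes.

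Cacna2d3 stood at 81, 85.3, 76.5 and 65.6 CPM in the WT_S6 libraries and at 79.8, 80.4, 80.9, 69.7 and 84.5 CPM in WT_SD6. In CnB1KO_S6 it stood at 88.6, 90.2, 86, 89.1 and 95.8 CPM, and in CnB1KO_SD6 at 86.1, 89.7, 100, 95.2 and 87.8 CPM. Every CnB1KO library lay above every control library of the same sleep state, although the gap between the highest control and the lowest knockout library was under 2 CPM in each state. Such a separation upward was shared by 2.55% of all genes after sleep and 1.11% after deprivation, and among the channel genes it was seen in Cacna2d3 alone. The log2 fold change was 0.22 ± 0.07 after sleep (adjusted p = 0.309) and 0.21 ± 0.06 after deprivation (adjusted p = 0.172). The interaction was -0.01 ± 0.09 (adjusted p = 1).

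The call of Cacna2d3 was close to the threshold. It was lost without WT_S6 library 4 (log2 fold change 0.18, adjusted p = 0.0556), without WT_SD6 library 7 (0.22, 0.0505) and without CnB1KO_S6 library 15 (0.21, 0.0522), but not without library 8 (0.22, 0.0242) or library 18 (0.20, 0.046). With the cerebellar, pan-neuronal or noradrenergic score or the log2 library total as a covariate, Cacna2d3 still passed. Its fold changes were then 0.20, 0.23, 0.20 and 0.24 (edgeR adjusted p = 0.0349, 0.0252, 0.0223 and 0.0143). On both FPKM scales it did not pass (limma adjusted p = 0.0743 and 0.0699). With the oligodendrocyte marker score as a covariate the fold change was 0.16 and the adjusted p 0.506. Under that covariate 10 of all genes were called in place of 447. Oligodendrocyte markers moved with the genotype: 3 of 12 rose, and after sleep the mean score was 7.26 in controls (range 7.11 to 7.33) and 7.36 in knockouts (7.11 to 7.62), against 6.97 (6.82 to 7.11) and 7.25 (6.99 to 7.35) after deprivation. The score of 7.62 was that of CnB1KO_S6 library 13, which had the lowest total of the series. Of all 14443 genes 272 were called higher in this comparison, as were 2 of 12 microglia markers. Pan-neuronal markers were above 0 in 11 of 12, and 0 passed. Endothelial and mural markers moved too, with 7 of 11 called higher in CnB1KO. Their mean score after sleep was 5.44 in controls (range 5.33 to 5.54) and 5.71 in knockouts (5.59 to 5.90), and after deprivation it was 5.54 (5.31 to 5.70) and 5.75 (5.57 to 6.03). The defining markers were far from 0, with at least 2043 counts of Mbp and 146 of Cldn5 in every library. The part of these cells in the result was not tested beyond the covariate.

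Of the pores, Cacna1e had the next smallest p, with a log2 fold change of -0.30 ± 0.09 (adjusted p = 0.0626). It stood at 371, 418, 476 and 506 CPM in WT_S6 and at 388, 310, 363, 397 and 323 CPM in CnB1KO_S6. After deprivation it stood at 444, 488, 413, 474 and 439 CPM in WT_SD6 and at 407, 371, 247, 389 and 441 CPM in CnB1KO_SD6. The groups overlapped in both states, by the lowest control library after sleep and by the highest knockout library after deprivation. Cacna1e passed under 6 of 31 alternatives, among them the DESeq2 Wald test (adjusted p = 0.0252). Without library 18, in which it was lowest, its fold change was -0.25 (adjusted p = 0.0528), and with the oligodendrocyte score as a covariate it was -0.20 (adjusted p = 0.774).

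Scn2a had a log2 fold change of -0.26 ± 0.08 (adjusted p = 0.0741). It stood at 337, 362, 381 and 408 CPM in WT_S6, at 344, 372, 368, 405 and 311 CPM in WT_SD6, at 340, 263, 328, 343 and 278 CPM in CnB1KO_S6 and at 356, 291, 215, 291 and 343 CPM in CnB1KO_SD6. In both sleep states the groups overlapped, with the upper knockout libraries within the control range. Without CnB1KO_SD6 library 16 the gene passed (-0.30, adjusted p = 0.0342), as it did without WT_SD6 library 10 (-0.29, adjusted p = 0.0499) and by the DESeq2 Wald test (adjusted p = 0.038). Its fold change was -0.15 (adjusted p = 0.836) with the oligodendrocyte covariate. The other main sodium channel pores had values above 0, with 0.09 ± 0.05 for Scn8a (adjusted p = 0.258) and 0.07 ± 0.04 for Scn1a (adjusted p = 0.353).

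Scn4b had the largest fold change of the channel genes in this comparison, 0.36 ± 0.12, and did not pass (adjusted p = 0.0799). It passed without library 8 (0.41, adjusted p = 0.0476), without CnB1KO_S6 library 14 (0.40, adjusted p = 0.0493) and without CnB1KO_SD6 library 16 (0.40, adjusted p = 0.0417), and under no other alternative run. It stood at 188, 193, 217 and 139 CPM in WT_S6 and at 195, 280, 260, 187 and 282 CPM in CnB1KO_S6. After deprivation the values were 186, 168, 238, 137 and 219 CPM in WT_SD6 and 188, 248, 281, 274 and 214 CPM in CnB1KO_SD6. The groups overlapped in both states, with the lowest knockout libraries, at 187 and 188 CPM, inside the control range. Scn4b was also the channel gene that moved with the oligodendrocyte score within groups (slope 1.49 ± 0.31 log2 per log2, adjusted p = 0.022), and with that score as a covariate its fold change was 0.08 (adjusted p = 0.966). Its neighbour on chromosome 9, Scn2b, which lies 8.32 kb away, stood at -0.10 ± 0.06 (adjusted p = 0.315).

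By class, both L-type pores were lower (Cacna1d -0.21 ± 0.07, adjusted p = 0.109; Cacna1c -0.16 ± 0.08, adjusted p = 0.228), and all 3 pores of the P/Q, N and R types were lower, with Cacna1a at -0.21 ± 0.11 (adjusted p = 0.271). Of the T-type pores 2 were lower and Cacna1h was higher at 0.19 ± 0.12 (adjusted p = 0.364). Among the beta subunits Cacnb4 stood at -0.25 ± 0.10 (adjusted p = 0.148) and Cacnb2 at -0.07 ± 0.03 (adjusted p = 0.143). The gamma subunits had 4 values above 0 and 2 below, between -0.14 and 0.07. None of these passed the test. Cerebellar markers moved in the same direction as the lower pores: all 12 had a fold change below 0 in CnB1KO with a median of -0.54, of which 0 of 12 passed (smallest adjusted p = 0.257). The ranges of the score overlapped, at 5.80 to 7.16 for WT_S6, 4.56 to 7.62 for WT_SD6, 4.88 to 6.87 for CnB1KO_S6 and 4.19 to 7.15 for CnB1KO_SD6, and its part in the channel values was not tested beyond the covariate.

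**Figure D2:**
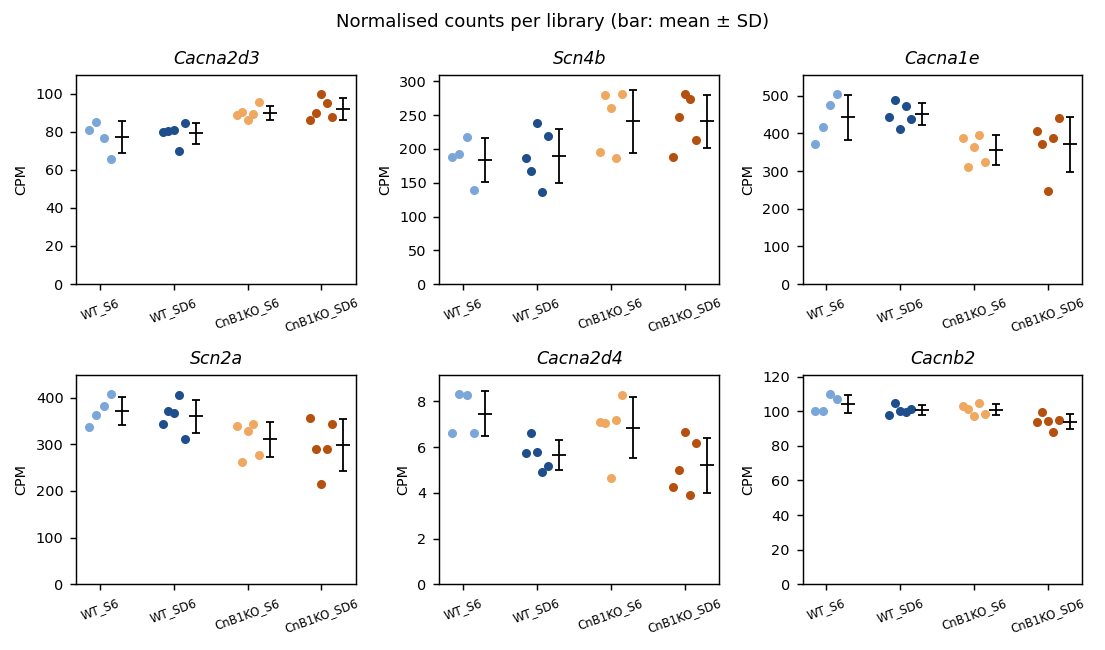
CPM in each library for 6 channel genes, with points coloured by group and, beside them, the group mean ± SD. Cacna2d3 is above the controls in all 10 CnB1KO libraries of the same sleep state, from 86 to 100 CPM, and the groups of Scn4b, Cacna1e and Scn2a overlap.

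Within each sleep state, no channel gene passed the test of genotype. After sleep 0 of 33 passed, against 0.0485% of all genes, and 4 had an unadjusted p under 0.05, against 10.1%. After deprivation 0 of 33 passed, against 0.132%, and 8 had an unadjusted p under 0.05, against 15.2%, of which 6 were lower, against 7.17% of all genes. The fold changes lay between -0.31 and 0.38 after sleep and between -0.32 and 0.34 after deprivation. The smallest p after deprivation, beside Cacna2d3, belonged to Cacnb2 (-0.10 ± 0.04, adjusted p = 0.269) and Cacna1d (-0.26 ± 0.10, adjusted p = 0.256). Cacna1d stood at 110, 133, 114, 117 and 107 CPM in WT_SD6 and at 111, 110, 67.2, 100 and 97 CPM in CnB1KO_SD6, the low value of 67.2 being that of library 18. Without that library its fold change was -0.16 (adjusted p = 0.462). With the oligodendrocyte score as a covariate it was -0.10 for Cacna1d, -0.05 for Cacnb2 and 0.12 for Cacna2d3, each with an adjusted p of 1.

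The second comparison asked how the channel genes responded to 6 h of lost sleep. Averaged over genotypes, 0 of 33 channel genes passed, against 4.69% of all genes. At an unadjusted p under 0.05 there were 2 of 33, against 17.2% of all genes, and both were lower, against 8.29%. The fold changes were small, between -0.41 and 0.04 for the 31 genes, with a median of -0.04 over all 33 (all genes 0.00), and their SE had a median of 0.08. By sign 10 were above 0 and 23 below. Over all genes the median was 0.01 under 2 kb of exon and -0.02 at 15 kb or more. Glial markers moved with lost sleep as well, with 3 of 12 oligodendrocyte markers and 2 of 12 microglia markers called lower. Of all 14443 genes 307 were called lower. The microglia score was 4.52 in WT_S6 (range 4.46 to 4.63) and 4.29 in WT_SD6 (4.06 to 4.46), against 4.53 (4.45 to 4.64) and 4.5 (4.35 to 4.63) in the knockouts. The part of these cells in the channel values was not tested beyond the oligodendrocyte covariate.

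Cacna2d4 had the largest value, -0.41 ± 0.12 (adjusted p = 0.0541). It stood at 6.62, 8.33, 8.3 and 6.63 CPM in WT_S6 and at 5.76, 6.64, 5.79, 4.91 and 5.19 CPM in WT_SD6. In the knockout mice it stood at 7.08, 7.05, 4.64, 7.19 and 8.27 CPM in CnB1KO_S6 and at 4.25, 5.01, 6.66, 3.91 and 6.2 CPM in CnB1KO_SD6. In controls the groups overlapped by 1 library only, the deprived library at 6.64 CPM, and in knockouts they overlapped by the rested library at 4.64 CPM, number 13, which had the lowest total. The fold change was -0.40 ± 0.17 in WT (adjusted p = 0.337) and -0.41 ± 0.16 in CnB1KO (adjusted p = 0.368). These are values of 17 to 58 counts per library. The gene passed under 11 of 31 alternatives, with an adjusted p between 0.0253 and 0.193 over all of them, and without library 13 at -0.45 (adjusted p = 0.0267). The largest of these p-values came with the oligodendrocyte score as a covariate, where the fold change was -0.39.

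Cacnb2 was the most even channel gene, with a biological coefficient of variation (the spread between libraries beyond counting) of 3.79%, against a median of 11.5% for the channel genes and 7.93% for all genes. It stood at 100, 100, 110 and 107 CPM in WT_S6 and 97.6, 105, 100, 99.3 and 101 CPM in WT_SD6. In CnB1KO_S6 it stood at 103, 101, 97.2, 105 and 98.1 CPM, and in CnB1KO_SD6 at 94, 99.3, 94.4, 87.7 and 94.8 CPM. The groups overlapped in both genotypes, and the averaged fold change of -0.08 ± 0.03 did not pass (adjusted p = 0.159); on the log2(FPKM + 1) scale it was -0.01 (adjusted p = 0.944). Cacna1d followed with -0.15 ± 0.07 (adjusted p = 0.331). Its value was -0.10 without library 18 (adjusted p = 0.367) and -0.26 with the oligodendrocyte score as a covariate (adjusted p = 0.118).

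Deprivation in controls alone gave 0 of 33, against 1.14% of all genes, and 1 channel gene with an unadjusted p under 0.05, against 11.6%. In knockouts it gave 0 of 33, against 0.692%, and 2 with an unadjusted p under 0.05, against 9.69%. The fold changes of the 31 genes lay between -0.40 and 0.10 in controls and between -0.41 and 0.06 in knockouts. In knockouts Cacna2d2 stood at -0.13 ± 0.06 (adjusted p = 0.53).

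The third question was whether the response to lost sleep differed between genotypes. The interaction was called for 0 of 33 channel genes and 0% of all genes by edgeR. No channel gene had an unadjusted p under 0.05, against 1.99% of all genes, and DESeq2 and limma voom also called 0 of 33. The interaction values of the 31 genes lay between -0.16 and 0.15, and the median SE was 0.16. The smallest p belonged to Cacna2d2 (-0.12 ± 0.09), Cacng5 (-0.16 ± 0.15) and Scn8a (-0.08 ± 0.09), each with an adjusted p of 1.

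**Figure D3:**
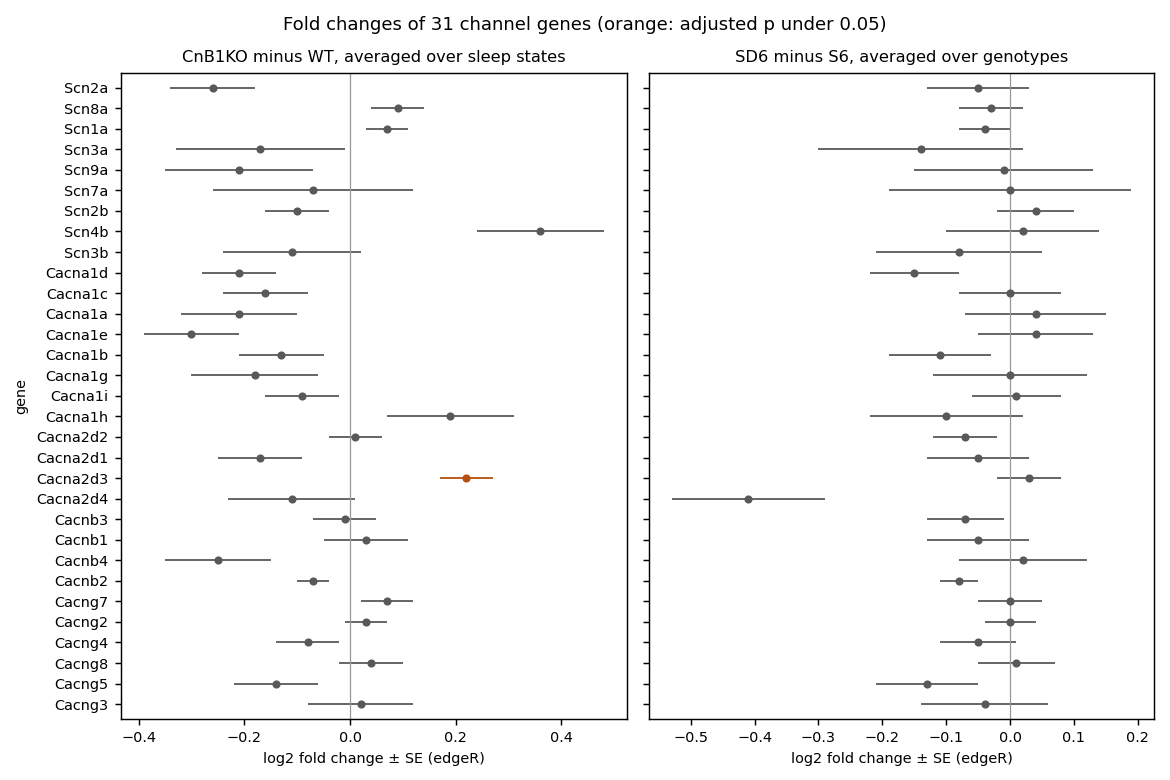
Log2 fold change ± SE of 31 channel genes from the edgeR fit, left for CnB1KO against WT averaged over sleep states and right for deprivation against sleep averaged over genotypes. Cacna2d3 at 0.22 is the 1 gene with an adjusted p under 0.05 (orange), and Cacna2d4 at -0.41 lies farthest from 0 on the right.

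Among proteins known to bind or regulate these channels, 29 of a list of 33 were measured. In CnB1KO, Fgf11 rose by 0.31 ± 0.07 (adjusted p = 0.0225) and Fgf14 fell by 0.28 on the log2 scale (SE 0.06, adjusted p = 0.0225), so 1 of 29 rose and 1 fell, against 3.09% of all genes called in either direction. Both encode fibroblast growth factor homologous factors, which bind the tail of sodium channel pores inside the cell. Fgf11 stood at 73.1 ± 5.26 CPM in WT_S6 (SD, n = 4), 78.1 ± 8.67 in WT_SD6, 94.9 ± 11.4 in CnB1KO_S6 and 92.9 ± 10.9 in CnB1KO_SD6 (n = 5 each). Fgf14 stood at 66.4 ± 5.49, 66.7 ± 7.17, 56.8 ± 4.56 and 52.9 ± 5.14 CPM in the same order. The other 2 family members did not pass, with 0.01 ± 0.04 for Fgf12 (adjusted p = 0.851) and 0.05 ± 0.11 for Fgf13 (adjusted p = 0.82). With lost sleep averaged over genotypes, Stac3, which encodes an adaptor of L-type channels in muscle, rose by 0.72 ± 0.15 (adjusted p = 0.00812), from 3.41 ± 0.634 to 6.31 ± 1.43 CPM in controls and from 3.49 ± 0.819 to 5.29 ± 1.34 CPM in knockouts. It was 1 of 29 to rise, and 0 fell, against 4.69% of all genes called in either direction. In the other 5 comparisons 0 of 29 passed.

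The channel genes differed in how much they varied between libraries of 1 group. The biological coefficient of variation of the 31 was highest for Scn7a (28.8%), Scn3a (24.1%), Scn9a (21%) and Scn3b (20%), all of them sodium channel genes. The abundant sodium channel pores Scn1a (6.43%) and Scn8a (7.11%) and the gamma subunit Cacng2 (6.29%) varied far less. Much of this spread was shared. The first principal component of the deviations from the group means held 63.2% of their variance and the second 18.7%; without WT_SD6 library 8 they held 43.6% and 27.1%.

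**Figure D4:**
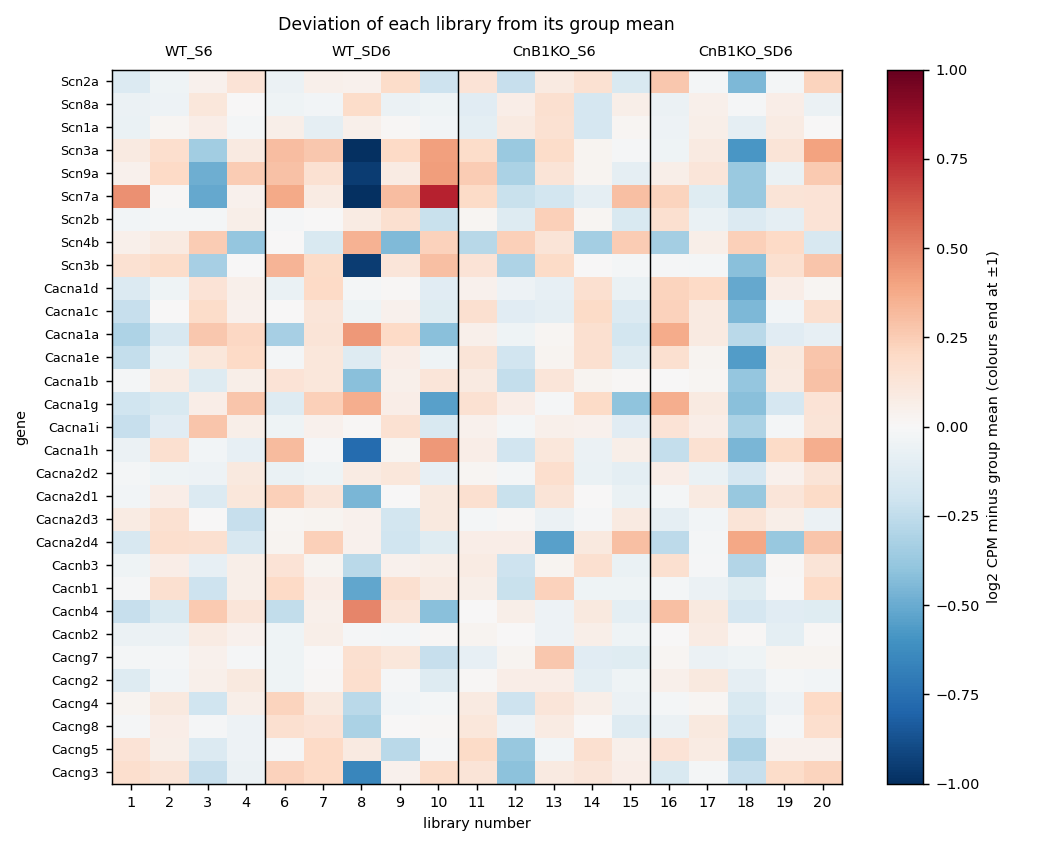
Deviation of log2 CPM from the group mean for 31 channel genes (rows, ordered by class) in the 19 libraries (columns), with colours ending at ±1. WT_SD6 library 8 is low in Scn3a, Scn9a, Scn7a and Scn3b and high in Cacna1a and Cacnb4, and CnB1KO_SD6 library 18 is low across most rows.

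Library 8 was the extreme of its group for several of these genes. Scn3a stood there at 55.6 CPM against 146 to 169 in the other WT_SD6 libraries, and Scn3b at 68.7 against 144 to 168. Scn7a stood at 9.3 against 28.5 to 46.1. By contrast, Cacnb4 stood at 297 CPM against 158 to 230, and Cacna1a at 426 against 236 to 364. Library 8 was thus the lowest of its group for the former 3 and the highest for the latter pair.

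Over all libraries, 10 channel genes rose with the noradrenergic marker score within groups, against 9.72% of all genes (edgeR with the group and the score in 1 fit, 14431 genes). The slopes, in log2 CPM per unit of score, were 0.82 ± 0.19 for Scn7a, 0.70 ± 0.15 for Scn3a, 0.64 ± 0.11 for Scn3b, 0.57 ± 0.14 for Scn9a, 0.54 ± 0.07 for Cacng3 and 0.52 ± 0.12 for Cacna1h. Cacnb1, Cacna2d1, Cacna1b and Cacng4 followed at 0.24 to 0.33. Another 4 fell with the score, against 10.4% of all genes: Cacna1a and Cacnb4 by 0.47, Cacna1g by 0.39 and Cacng2 by 0.17. Without library 8 there were 2 positive slopes, Cacng3 (0.44 ± 0.08, adjusted p = 0.00548) and Scn3b (0.43 ± 0.11, adjusted p = 0.0367), against 2.22% of all genes. Scn7a then had a slope of 0.46 (adjusted p = 0.14), Scn3a 0.40 (adjusted p = 0.126), Scn9a 0.32 (adjusted p = 0.255) and Cacna1h 0.35 (adjusted p = 0.144). The 2 negative slopes left were Cacnb4 (-0.44 ± 0.10, adjusted p = 0.0198) and Cacna1a (-0.49 ± 0.13, adjusted p = 0.0487), against 2.03%. Library 8 also had the lowest score of 6 mesencephalic trigeminal and sensory neuron markers, at 2.465 against 3.72 to 4.70 in the other libraries. No slope on that score was fitted, and the part of those cells in these slopes was not tested.

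With the cerebellar score, 3 channel genes rose, against 12.4% of all genes. These were Cacna1a (0.21 ± 0.04, adjusted p = 0.000492), Cacnb4 (0.20 ± 0.03, adjusted p = 0.00012) and Cacna1g (0.19 ± 0.05, adjusted p = 0.00904), all known from cerebellar Purkinje and granule cells, and the count of 3 also held without library 8, against 9.6% of all genes, and lay between 2 and 5 with other single libraries left out. Another 3 fell, against 8.75%: Cacna1h (-0.20 ± 0.05), Scn3b (-0.18 ± 0.06) and Cacng3 (-0.14 ± 0.05). Leaving out 1 library at a time gave between 1 and 5 such genes. Without library 8 this count was 1, against 5.34% of all genes, and Cacna1h had a slope of -0.16 ± 0.04 (adjusted p = 0.00697). With the pan-neuronal score 3 genes rose, against 9.24%, among them Cacng7 (0.68 ± 0.16) and Cacna2d2 (0.52 ± 0.14). That count was 0 without CnB1KO_S6 library 13, which had the highest pan-neuronal score of the series, against 3.19% of all genes, and 1 with library totals in place of TMM factors, against 5.1%. Scn4b alone rose with the oligodendrocyte score, against 1.3% of all genes, and none did without WT_S6 library 4, CnB1KO_S6 library 14 or CnB1KO_SD6 library 16. None fell with it, against 0.298%, but without library 8 Cacna1a did (-1.01 ± 0.31, adjusted p = 0.0488), against 5.78%. None fell with the pan-neuronal score, against 1.32%, and 1 did with library totals, against 4.68%. The noradrenergic and cerebellar scores moved in opposite directions in library 8, so their parts in these slopes cannot be told apart from that library.

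**Figure D5:**
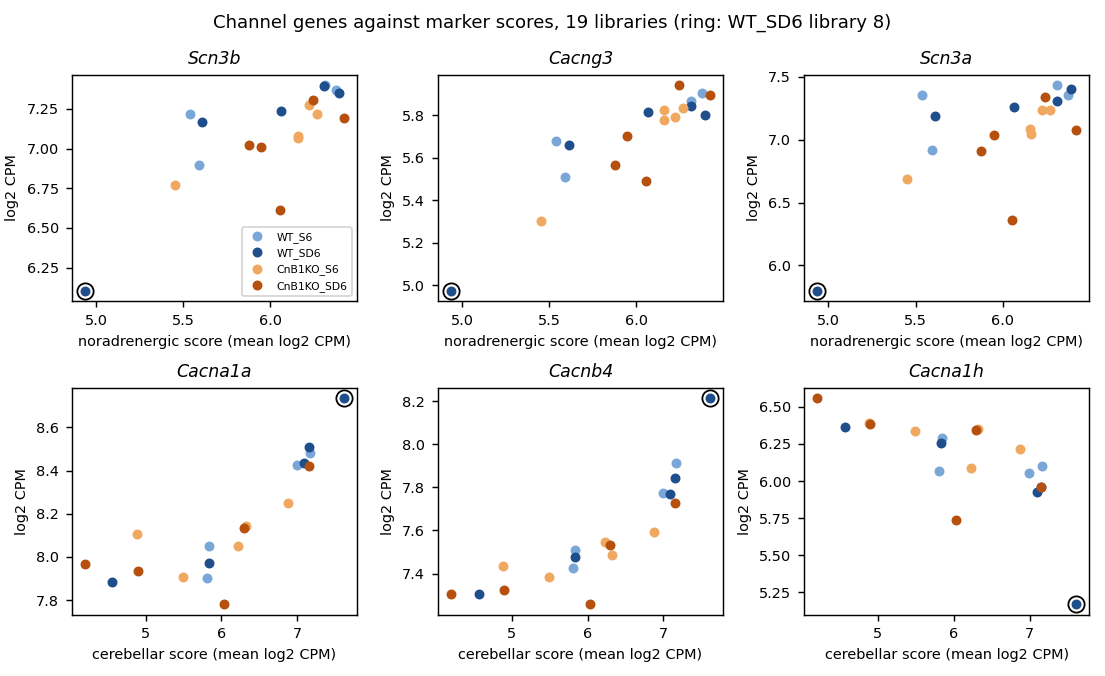
Log2 CPM of 3 channel genes against the noradrenergic marker score (top) and of 3 against the cerebellar marker score (bottom), both in mean log2 CPM, with 1 point per library coloured by group. The ringed point is WT_SD6 library 8, at a noradrenergic score of 4.93 and a cerebellar score of 7.62, which lies at the end of every panel.

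Of the 528 pairs of channel genes, 124 correlated positively and 14 negatively over the 19 libraries after subtraction of the group means (100000 permutations within groups, Benjamini-Hochberg over the 528 pairs, adjusted p under 0.05). The libraries share depth, composition and dissection, so these are descriptions of the tissue samples. Pairs of other genes were not counted, so these counts cannot be called particular to channel genes. The closest pair was the pore Scn3a with the beta subunit Scn3b (Pearson's r = 0.99, Spearman's rho = 0.93, permutation p = 1e-05 and adjusted p = 0.000528 for each, the smallest p these permutations can give), and r was 0.96 without the 2 libraries farthest from the median. The P/Q-type pore Cacna1a went with the beta subunit Cacnb4 (r = 0.96, permutation p = 1e-05, adjusted p = 0.000528; rho = 0.97, permutation p = 2e-05, adjusted p = 0.000754; r = 0.96 without 2 libraries). The N-type pore Cacna1b went with the alpha2delta subunit Cacna2d1 (r = 0.96, rho = 0.95, permutation p = 1e-05 and adjusted p = 0.000528 for each). Their r was 0.90 without 2 libraries.

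Of the 14 negative pairs, 6 held Cacna2d3 and 4 held Scn4b. Cacna2d3 ran against Scn2a (r = -0.70, permutation p = 0.00011, adjusted p = 0.00142; rho = -0.79, permutation p = 0.00012, adjusted p = 0.00186; r = -0.74 without 2 libraries), and Scn2a ran against Scn4b (r = -0.70, permutation p = 0.00147, adjusted p = 0.00903; rho = -0.70, permutation p = 0.00256, adjusted p = 0.016; r = -0.72 without 2 libraries). Within groups, a library with more Cacna2d3 thus had less Scn2a, and between genotypes their fold changes had the same opposite signs, that of Scn2a without passing the test.

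Neighbours on a chromosome did not form a common pattern. On chromosome 2 the 5 sodium channel pore genes lie in the order Scn3a (65457118 to 65567627, minus strand), Scn2a (65620771 to 65767447, plus), Scn1a (66270778 to 66440840, minus), Scn9a (66480080 to 66634962, minus) and Scn7a (66673425 to 66784914, minus), in GRCm38. Scn9a and Scn7a, 38.5 kb apart, went together (r = 0.86, permutation p = 0.00313, adjusted p = 0.0167; rho = 0.58, permutation p = 0.0274, adjusted p = 0.0998; r = 0.63 without 2 libraries). For Scn3a and Scn2a, 53.1 kb apart, r was 0.28 (permutation p = 0.246, adjusted p = 0.41; rho = 0.22; r = -0.05 without 2 libraries). Scn1a and Scn9a, 39.2 kb apart, had an r of -0.21 (permutation p = 0.351, adjusted p = 0.514; rho = -0.20; r = -0.32 without 2 libraries).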

How the data were processed

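Poly(A) RNA of 19 locus coeruleus libraries was analysed. The authors deposited counts per gene symbol and FPKM per library; per the submitters' processing notes, the tools included HTSeq 2.0.4, StringTie 2.2.1, SAMtools 1.6, Picard 2.18.29, Trim Galore 0.6.10 and FastQC 0.12.1, and the build was GRCm38. No source used here gives the aligner, the annotation or the rule that chose the counted genes. TPM columns, 19 in number, were not used. Counts were TMM-scaled and compared by edgeR 4.0.16 under R 4.3.3 (quasi-likelihood F test, 2-sided, 1 fit of 4 groups, 14443 genes, Benjamini-Hochberg, threshold 0.05) in 7 comparisons. In simulated counts, genotype averaged over sleep states recovered 26 of 50 genes changed 1.25-fold and 45 of 50 changed 1.5-fold. Genotype after sleep recovered 10 and 39 of 50. The changed genes were drawn from all genes, whose median biological coefficient of variation was 7.93%, against 11.5% for the channel genes. Their noise was drawn independently for each gene, and recovery among channel genes alone was not simulated. A gene that was not called is thus not shown to be unchanged. P-values measure the spread between biological replicates as labelled. Alternatives used DESeq2 1.42.0 and limma 3.58.1. FPKM were tested as log2(FPKM + 0.1) or (FPKM + 1) above a mean of 0.1 FPKM, which understates changes of low genes. Gene positions are from GENCODE M21, promoters from RefSeq GRCm38.p6.

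The members and lists were chosen with earlier results of these data known. Values were named for channel genes with an adjusted p under 0.05, the 3 smallest p in each comparison, and the 2 highest and the lowest FPKM of each class; other values were named after they were seen, and those of 2 channel genes are not reported here. The protocol marks no strand, so reads of overlapping antisense genes cannot be told apart: 10 channel genes share exon bases with other genes, of which Cacng8 shares them on its own strand. The shares are 16.0% for Cacnb4, 7.32% for Cacnb2 (with 3 genes), 5.86% for Cacng2 and under 5% for the others. Genes with many counts per kilobase gained counts less than in proportion to depth. A gene's log2 count had a median slope on the log2 total of 1.01 to 1.31 among genes as dense as 28 of the channel genes. Among denser ones it was 0.78 or less. The table columns carry running library numbers that could not be matched to the replicate numbers of the labels.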

Additional observations from a re-analysis of the deposited data

Results flagged for a closer look

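In 132 group-by-gene sets of channel genes, 11 held a highest or lowest library whose gap to its nearest neighbour was large for the range of the group (Dixon's 95% limit). Chance flags about 1 in 20 such sets. WT_SD6 library 8 gave 6 of the 11. It was the lowest of its group for Scn3a (55.6 CPM), Scn3b (68.7 CPM), Cacng3 (31.4 CPM), Cacnb1 (73.2 CPM) and Cacna1b (182 CPM) and the highest for Scn8a (508 CPM). CnB1KO_S6 library 12 was the lowest for Cacng3 (39.4 CPM), and the noradrenergic marker score of the same library was the lowest of its group at 5.45. CnB1KO_SD6 library 18 was the lowest for Cacng5 (55.4 CPM). In WT_S6, library 4 was the highest for Cacna2d2 (244 CPM) and Scn2b (275 CPM), and library 3 for Cacng7 (142 CPM). These last 3 values are within 1.1 times the next library. The total of CnB1KO_S6 library 13 was the lowest of its group at 3887298 counts, the next being 6234026.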

How the results depend on the processing

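No paired analysis was possible because the columns carry no replicate number of the labels. For deprivation in WT, deprivation in CnB1KO, both genotype comparisons within a sleep state and the interaction, the count of channel genes called was 0 under each alternative run. For genotype averaged over sleep states it was 1, and 2 with library totals only, 3 with DESeq2 (Cacna2d3, Cacna1e, Scn2a), 0 with both FPKM pseudocounts, 0 with the oligodendrocyte score as a covariate, and 0 to 4 when 1 library was left out. For deprivation averaged over genotypes it was 0, and 1 (Cacna2d4) with DESeq2, limma voom, both FPKM pseudocounts and the covariates log2 library total, cerebellar, pan-neuronal and (chosen after seeing the data) noradrenergic score, and 0 to 1 when 1 library was left out. Cacnb2 in WT deprivation (-0.05) turned to 0.02 on both FPKM scales; the cause was not tested. With library totals only, the deprivation signs were 13 higher and 20 lower in place of 10 and 23. The fit of only the groups compared could not be run for comparisons that use all 4. The slopes on marker scores were added after seeing the data: leaving out 1 library gave 2 to 13 positive and 2 to 6 negative slopes on the noradrenergic score, the lowest both without WT_SD6 library 8. Precision was limited by the spread between libraries, with a median SE of 0.08 (log2) in the averaged comparisons and 0.16 in the interaction, and by 17 to 58 counts per library for Cacna2d4.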
